A study of Mus musculus with 52 samples.

Results

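The regions described here are stretches of mouse chromatin that carried acetylated histone H3 lysine 27 (H3K27ac) in the suprachiasmatic nucleus (SCN) both after light and in the dark, and that carried no trimethylated histone H3 lysine 4 (H3K4me3). A region was kept when its peak in the light H3K27ac list overlapped a dark H3K27ac peak by 1 bp or more and overlapped no peak of the light or the dark H3K4me3 list. The regions were thus chosen by the presence and overlap of peaks in these 4 lists. This rule kept 7334 of the 40403 light H3K27ac peaks, and the dark list held 38447. Of the 26287 light peaks shared with the dark list, the other 18953 overlapped H3K4me3, and 14116 light peaks had no dark peak.

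Acetylation of lysine 27 marks active promoters and active enhancers, and trimethylation of lysine 4 is concentrated at active promoters. Acetylated chromatin without H3K4me3 and away from gene starts is therefore often taken as a candidate enhancer, a stretch of DNA that binds transcription factors and raises transcription of a gene at a distance. The SCN is the circadian pacemaker of the hypothalamus, and light during the subjective night reaches it through the retina and induces immediate-early genes and Per genes there.

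All samples came from male mice of 11 to 12 weeks. Each ChIP-seq sample was made from 2 pairs of wild-type (WT) SCN, taken after 1 h of light or in the dark, with 1 peak list per mark and condition. RNA came from 2 experiments with 6 pairs of SCN pooled per library. In the first, wild-type littermates of Npas4-/- mice received 1 h of light at circadian time 17 (CT17; 3 libraries) or stayed in the dark (3 libraries), and the 6 Npas4-/- libraries entered only the estimate of the spread. In the second, the light-pulse experiment, wild-type mice received light from CT17 for 0.5 h (4 libraries), 1 h (2), 3 h (2) or 6 h (2), or stayed in the dark until CT17 (4) or CT23 (2). Its 0.5 h, 1 h and 3 h groups thus have no dark group of the same circadian hour. Light and the hours passed since CT17 cannot be told apart when they are set against CT17 dark. The tissue was dissected whole, so a change in the cells present and a change in RNA or acetylation per cell cannot be told apart.

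The 12 libraries of the littermate experiment held 26638939 to 32097975 counted reads and the 16 of the light-pulse experiment 12477382 to 30149286. The depth of the ChIP libraries is unknown from the peak lists. In the dark littermate libraries the SCN transcription factors Six6 and Lhx1 stood at 124 to 181 and 101 to 178 CPM (reads of a gene scaled to the library total), and the SCN peptide Vip at 428 to 771 CPM. Oxt, a peptide of the neighbouring hypothalamus, stood at 153 to 293 CPM and the myelin gene Mbp at 1684 to 2681 CPM, so the tissue also held cells from outside the SCN and glia. The 10 oligodendrocyte markers summed to 4133 to 6027 CPM in the light libraries of the light-pulse experiment against 7525 to 8780 CPM in its CT17 dark libraries, without overlap, and to 5581 to 6089 CPM in light against 4759 to 7043 CPM in dark littermates. None of the 10 was at 0 in every library, and their part in the RNA results was not tested.

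No genome was given, so bases could be read only where a region overlapped one of the RefSeq windows (GRCm38.p6, the same assembly as mm10) that run from 250 bases before to 50 bases after an annotated start. This was so for 90 of the 7334 regions, on 104 windows. Of these regions, 63 lay on the start of a long non-coding RNA (lncRNA) and 27 on that of a protein-coding gene. The sequences below are the overlap of region and window. The first 4 lie near genes whose RNA was called higher in light in 1 or both experiments and the last 2 are protein-coding starts among the regions with the strongest light enrichment that cover a whole window. Capitals mark the E-box CACGTG, the element bound by CLOCK and BMAL1.
Sik1, start of Gm41565, chr17:31865385-31865558, minus strand: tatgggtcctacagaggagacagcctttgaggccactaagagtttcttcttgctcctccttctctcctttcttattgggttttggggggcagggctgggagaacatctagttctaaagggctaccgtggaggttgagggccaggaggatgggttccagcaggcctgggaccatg
Irs2, start of Gm32540, chr8:10866228-10866455, minus strand: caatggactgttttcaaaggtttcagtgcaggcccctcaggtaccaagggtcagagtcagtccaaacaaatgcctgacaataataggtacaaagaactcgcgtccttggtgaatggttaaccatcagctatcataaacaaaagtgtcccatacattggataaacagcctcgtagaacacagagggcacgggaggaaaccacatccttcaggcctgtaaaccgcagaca
Klf13, start of Gm39024, chr7:63956138-63956437, plus strand: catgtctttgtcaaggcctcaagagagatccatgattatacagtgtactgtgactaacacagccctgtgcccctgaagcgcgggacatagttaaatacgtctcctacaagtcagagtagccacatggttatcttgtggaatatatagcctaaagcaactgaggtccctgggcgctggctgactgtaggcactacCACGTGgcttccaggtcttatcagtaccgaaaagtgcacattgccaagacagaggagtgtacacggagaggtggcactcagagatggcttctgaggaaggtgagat
Rgs16, start of C230024C17Rik, chr1:153738005-153738079, minus strand: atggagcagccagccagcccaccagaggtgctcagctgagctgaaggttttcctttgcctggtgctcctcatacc
Gast, own start, chr11:100334157-100334456, plus strand: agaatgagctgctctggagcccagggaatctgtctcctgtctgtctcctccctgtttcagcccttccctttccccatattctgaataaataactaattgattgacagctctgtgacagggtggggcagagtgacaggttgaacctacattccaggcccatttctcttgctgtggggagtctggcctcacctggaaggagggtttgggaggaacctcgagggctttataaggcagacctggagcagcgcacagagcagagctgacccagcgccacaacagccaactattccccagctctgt
Tspan14, own start, chr14:40948160-40948459, minus strand: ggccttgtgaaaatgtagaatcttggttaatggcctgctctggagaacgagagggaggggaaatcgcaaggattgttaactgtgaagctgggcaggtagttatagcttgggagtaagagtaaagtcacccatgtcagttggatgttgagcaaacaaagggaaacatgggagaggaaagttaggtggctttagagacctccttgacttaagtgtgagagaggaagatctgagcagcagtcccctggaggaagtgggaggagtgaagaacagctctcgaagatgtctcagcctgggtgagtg

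The region at the Gm41565 start had a fold enrichment of 6.98 in light against 7.07 in dark and lies 8972 bp from Sik1, and the region at the Gm32540 start had 5.84 in light against 4.15 in dark and lies 142891 bp from the start of Irs2. The Klf13 region had 6.36 in light against 6.6 in dark, and the Rgs16 region 5.84 in light against 5.24 in dark. The Gast region, at the start of the gastrin gene, had 8.99 in light against 7.69 in dark, and the Tspan14 region 8.72 in light against 6.32 in dark. These stretches held 0 to 7 CpG dinucleotides each and were 46.9% to 58.7% G or C.

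In the 52 windows covered over 150 bases or more, 4 motifs were sought on both strands, and no motif contains the letters of another. The AP-1 motif TGACTCA, bound by FOS and JUN, was present in 4 windows (7.69%), against 5.20% of all 32851 RefSeq windows. The E-box was present in 3 (5.77%), against 7.15% of all windows. The cAMP response element TGACGTCA and the EGR motif GCGTGGGCG were in 0 of the 52, against 1.79% and 0.612% of all windows. With 52 windows these shares describe only the few regions that lie on annotated starts.

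The regions lay far from gene starts. The rule set no distance, but leaving out H3K4me3 takes out peaks at active promoters, so the contrast below in part restates the rule. Their summits were a median of 34638 bp from the nearest start of a gene in the count tables, and 3.71% were within 2 kb of one. Shared H3K27ac regions with H3K4me3 had a median distance of 428 bp, and 75.5% of them were within 2 kb. Of the regions without H3K4me3, 15.2% lay 2 to 10 kb, 43.6% lay 10 to 50 kb and 17.5% lay more than 100 kb from the nearest start. A protein-coding gene held the summit of 4876 regions (66.5%), and the same was true of 72.4% of the regions with H3K4me3. The name distal therefore fits their position, whereas their action as enhancers was not measured. For genes with no strand in the reference table, the distance is to the nearer gene end.

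**Figure D1:**
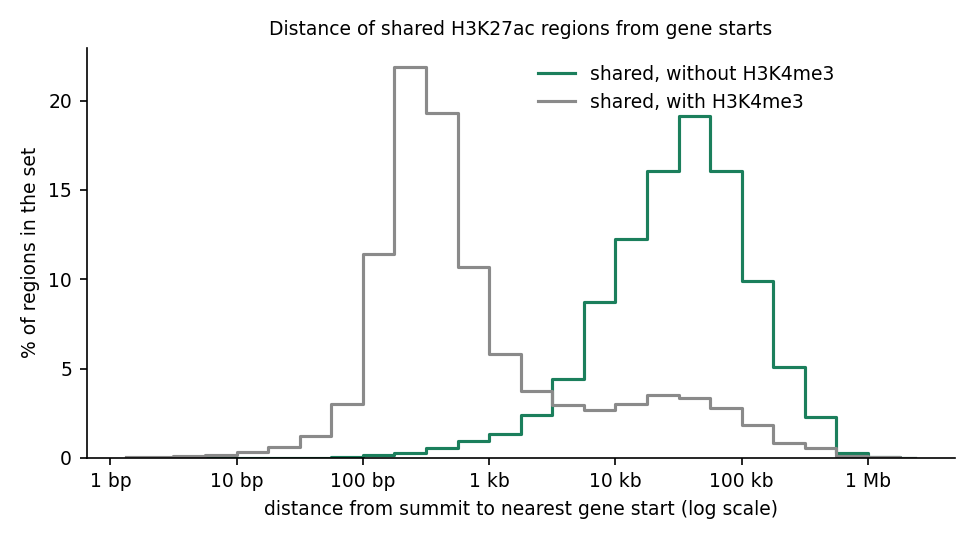
Share of shared H3K27ac regions (vertical axis, % of each set) by distance from the peak summit to the nearest gene start (horizontal axis, log scale, bins of equal width on that scale), for the 7334 regions without H3K4me3 (green) and the 18953 with H3K4me3 (grey). The green curve peaks between 10 kb and 100 kb and the grey one between 100 bp and 1 kb.

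The regions were short and of modest height. Their median width was 296 bp, with a range of 146 to 4058 bp, and 3722 of them were narrower than 300 bp. Fold enrichment, the peak caller's ratio of signal to background, had a median of 5.05 in light (quartiles 4.48 and 5.88, highest 13.4) and of 5.54 in dark (quartiles 4.80 and 6.46, highest 17.8). Shared regions with H3K4me3 were higher, with medians of 6.03 in light and 6.77 in dark. All of these values come from the lists the rule used, with 1 library per list, and are given as a description without a test.

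Matched from the light peaks, light values were slightly below the dark ones, and matched from the dark peaks they were about level. With each light peak set against the highest dark peak it overlapped, the median log2 ratio of light over dark was -0.11 (quartiles -0.37 and 0.15), and 2861 regions (39.0%) were higher in light. The shared regions with H3K4me3 had a median of -0.16. Matched in the other direction, with each of 7391 dark peaks without H3K4me3 set against its highest light peak, the median was -0.0062 and 49.1% were higher in light. Median enrichments in this match were 5.32 in light and 5.24 in dark. In the first match H3K4me3 was checked for the light peak alone, so its dark peaks may themselves overlap H3K4me3. Only 25 regions were more than 2-fold higher in light and 163 more than 2-fold lower. These ratios share their dark value in part, since 1510 regions overlap a dark peak that another region overlaps too, and the 7334 regions rest on 6547 dark peaks. Across the 7334 regions, light and dark enrichment had a Spearman correlation of 0.21, against 0.42 over the 18953 regions with H3K4me3, as a description of values read from the same pair of lists.

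**Figure D2:**
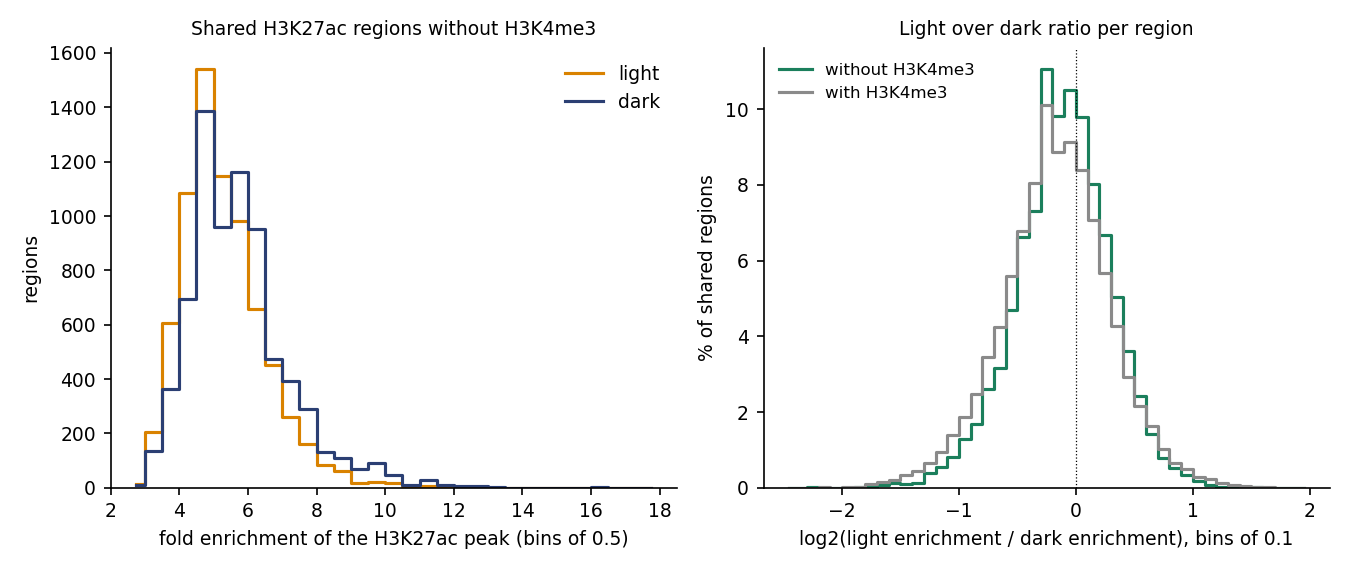
Left, number of shared H3K27ac regions without H3K4me3 (vertical axis) by fold enrichment (horizontal axis, bins of 0.5) in the light list (orange) and the dark list (blue). Right, share of regions (%) by log2 ratio of light over dark enrichment (bins of 0.1) for regions without (green) and with (grey) H3K4me3. The light curve lies to the left of the dark one, with medians of 5.05 and 5.54, and both ratio curves are centred just below 0.

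The enrichment values move in steps that limit how finely 1 region can be read. The step was 0.262 in the light list and 0.306 in the dark list, and 47.8% of the light peaks and 48.4% of the dark peaks lay on this ladder within 0.001. The median region stood 19.3 steps high in light and 18.1 in dark. At the edge of the rule, the 541 regions whose longest overlap with a dark peak was under 50 bp had a median of 4.53 in light and 5.24 in dark. The 433 light peaks that missed a dark peak by 50 bp or less had a median of 4.74 in light. The 230 regions within 100 bp of an H3K4me3 peak had 5.11 in light and 5.56 in dark.

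The 10 regions strongest in light lay near genes of varied function. The highest, chr11:31769787-31771071, had 13.4 in light against 11.4 in dark and lies 98873 bp upstream of Bod1, which encodes a protein of chromosome alignment in mitosis. The second, chr6:114217414-114219453, had 12.2 in light against 10.1 in dark and lies inside Slc6a11, a GABA transporter gene. The third, chr12:86807652-86808705, had 11.5 in light against 11.7 in dark, with Lrrc74a the nearest gene. These 3 were close in light and dark.

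Of the next 7, several lay within the gene they were nearest to. A region inside Ntrk2, the receptor of brain-derived neurotrophic factor, had 11.3 in light against 12.6 in dark (chr13:59092021-59093581). One inside Bag3, a co-chaperone gene, had 11.0 in light and 11.0 in dark (chr7:128530037-128532111). One inside Prex1, an activator of the GTPase Rac, had 11.1 in light against 8.59 in dark (chr2:166650747-166652760). Ntrk2 was nearest to 23 regions, Prex1 to 22 and Bag3 to 9.

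The remaining 4 of the 10 strongest were higher in light, the value by which they were picked. The region nearest to Prr18 had 11.3 in light against 9.82 in dark (chr17:8368568-8369765) and lies inside the gene T2. The region upstream of Rabl2, a small GTPase of cilia, had 11.3 in light against 6.54 in dark (chr15:89670043-89671065). The region 47419 bp downstream of Cryaa, a crystallin gene, had 11.2 in light against 6.77 in dark (chr17:31725004-31725699), and the region nearest to 4933407L21Rik had 11.0 in light against 8.02 in dark (chr1:85917350-85919010).

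Few of the nearest genes differed in RNA. Among the 10 nearest genes of these strongest regions, 8 were tested and only Bag3 was called in littermates, where 2.57% of all tested genes were called in either direction. Bag3 stood at 24.3 ± 1.5 CPM in light and 15.6 ± 1.1 CPM in dark littermates (SD, n = 3 each; log2 fold change 0.64 ± 0.08 SE, adjusted p = 0.000237, edgeR). In the light-pulse experiment Bag3 had a log2 fold change of 0.29 and an adjusted p of 0.358 in edgeR. There, where 1.27% of all tested genes were called in either direction, 0 of the 8 were called by edgeR or DESeq2, and 2 had an unadjusted p under 0.05, 1 in each direction. With the batch given in the labels as the term in place of the suffix, edgeR called Bag3 higher (log2 fold change 0.68, adjusted p = 0.00187) and Prr18 lower (-0.54, adjusted p = 0.00945). Bag3 and Inpp5f are neighbours, and the regions around them are described with Inpp5f.

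Among the 2237 regions at or above the median in both lists, the highest ratio of light over dark was near Tpra1, at 10.8 in light against 5.55 in dark (chr6:88970943-88972295; log2 ratio 0.96). A second region near Tpra1 had 8.88 in light against 5.54 in dark, and Tpra1 was nearest to 27 regions in all. The region near Vapb, a tether between endoplasmic reticulum and other membranes, had 10.8 in light against 6.16 in dark (chr2:173790644-173791477). The Rabl2 and Cryaa regions above followed, with log2 ratios of 0.80 and 0.73.

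Zfhx3 and Gadd45g were also among the nearest genes of this group. A region 285486 bp upstream of Zfhx3, a zinc-finger homeobox factor that acts on SCN neuropeptide genes in the mouse, had 10.0 in light against 5.89 in dark (chr8:107993203-107994129). A region 169082 bp downstream of Gadd45g, a stress-inducible gene, had 9.51 in light against 6.01 in dark (chr13:52015442-52016068). Regions near Trp53i11, Irf2bp2 and inside Prex1 had 8.99 to 10.3 in light against 5.55 to 6.16 in dark. Of the 9 nearest genes of these 10 regions, 8 were tested, and Gadd45g was the only gene called in either experiment without the replicate block. With the block in the littermate model, Irf2bp2 was called higher too (log2 fold change 0.36, adjusted p = 0.0135, edgeR).

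At the other end, the lowest ratios belonged to regions with very high dark values. This follows from the choice, since light had to reach its median of 5.05 and a low ratio then needs a high dark value. A region inside Rai1, a chromatin-binding factor gene, had 5.58 in light against 12.9 in dark (chr11:60113283-60113801). A pair of regions upstream of Gtf2ird1, a factor of the TFII-I family, had 5.11 and 5.25 in light against 11.4 in dark, and both overlap the same dark peak. RNA of the 4 nearest genes of the 5 lowest regions was called in neither direction in either experiment by edgeR or DESeq2, and 0 of them had an unadjusted p under 0.05.

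The highest dark peaks among the regions, picked after their values were seen, likewise had lower light values. Picking by the dark value favours this, so it is not a result about these regions. A region inside Zmynd8, a chromatin reader gene, had 3.70 in light against 17.8 in dark (chr2:165887208-165888956). A region inside Cuedc1 had 7.13 in light against 14.8 in dark (chr11:88117203-88117618), and a region 3714 bp upstream of Six3, a homeobox factor of the ventral forebrain, had 3.93 in light against 13.2 in dark (chr17:85609810-85610005). These dark peaks may themselves overlap H3K4me3, which was checked for the light peaks alone. With 1 library per list, whether such gaps recur between samples was not measured.

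The regions were clustered along the chromosomes. Joined across gaps of up to 12.5 kb, a distance set after the data were seen, they formed 3293 clusters, of which 1743 were lone regions. The 810 clusters of 3 or more held 4111 regions (56.1%), and the 55 clusters of 10 or more held 848 (11.6%). Across those 55 the median log2 ratio ran from -0.73 to 0.16, and it was positive in 8.

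The largest cluster, of 42 regions over 83675 bp, lay within Msi2, which encodes an RNA-binding protein of neural progenitors and glia, with median enrichments of 5.0 in light and 6.12 in dark. A second Msi2 cluster held 34 regions, with 5.12 in light and 5.54 in dark. Cuedc1 held 38, with 5.36 in light and 5.69 in dark.

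The cluster around Ghrh, the gene of growth hormone-releasing hormone, held 27 regions, 18 nearest to Ghrh and 9 to Mroh8, with medians of 5.32 in light and 5.54 in dark. The cluster at Src, a tyrosine kinase gene, and Nnat held 18 and had the highest median ratio of the 55, 0.16, with 12 regions higher in light.

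The regions were nearest to 2315 genes, and those genes were called higher in light more often than all tested genes were. In littermates, 75 of 2112 tested genes (3.55%) were called higher by edgeR at an adjusted p of 0.05, against 2.23% of all 15001 tested, and 6 were called lower, 0.284% against 0.34%. In the light-pulse experiment 44 of 2082 (2.11%) were called higher, against 1.11% of all 14524, and 6 lower, 0.288% against 0.158%. With the replicate number as a block in the littermate model, 119 nearest genes (5.63%) were called higher, against 3.7% of all, and 24 lower (1.14%), against 1.33%. Without replicate 1 of the 1 h light group, 29 nearest genes were called higher in the light-pulse experiment. The differences between these shares were not tested.

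The share did not grow with the number of regions. In littermates it was 2.04% for genes with 0 regions, 4.05% with 1, 3.76% with 2, 2.41% with 3 to 4 and 3.45% with 5 or more. In the light-pulse experiment it was 0.948%, 2.47%, 2.63%, 1.45% and 1.5% over the same classes. Genes with a region were also more often expressed: 91.2% of them passed the filter on low counts in littermates, against 67.2% of genes with none. Genes with a shared H3K4me3 region but no region of the kind described here were called higher in 2.68% of cases in littermates and 1.33% in the light-pulse experiment.

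**Figure D3:**
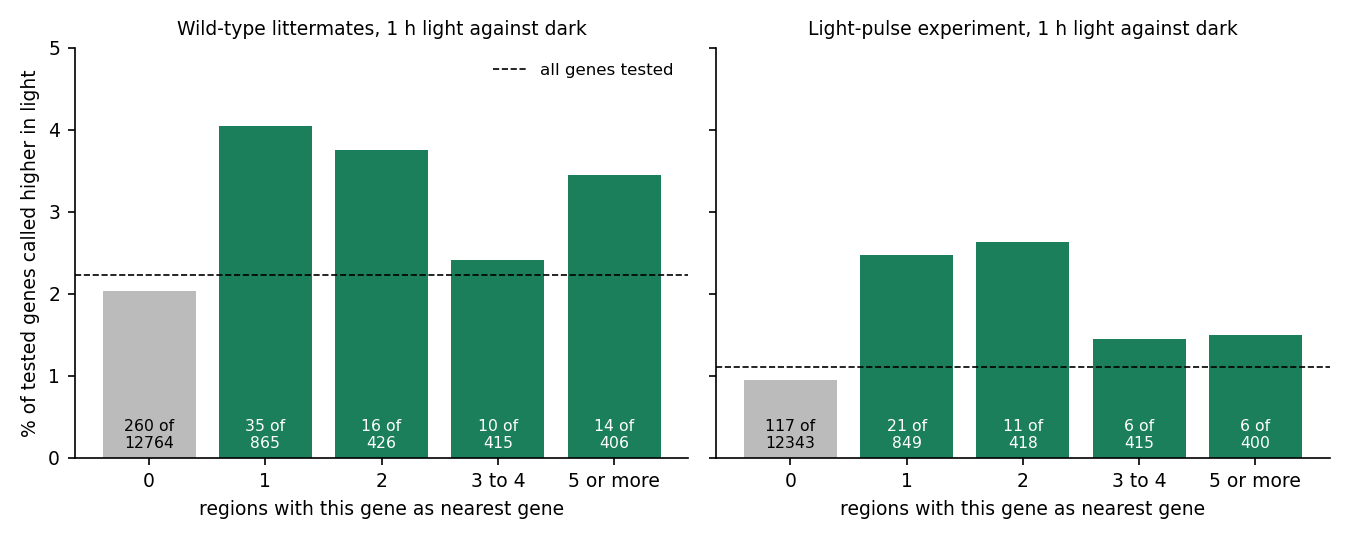
Share of tested genes called higher in light (vertical axis, %) by how many shared H3K27ac regions without H3K4me3 have the gene as their nearest gene (horizontal axis), in littermates (left) and the light-pulse experiment (right); green bars are genes with regions and grey bars genes with none, with the counts inside. Dashed lines give the share over all tested genes, 2.23% and 1.11%, and every green bar stands above its line, those with 3 to 4 regions by little.

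Called higher in both experiments were 41 of the 2077 nearest genes tested in both (1.97%), against 149 of 14476 tested genes (1.03%). The 114 regions of these 41 genes had a median log2 ratio of light over dark of 0.02 (95% interval from binomial ranks -0.06 to 0.11), beside -0.11 over all 7334 regions. Of the 114, 60 (52.6%) were higher in light, beside 39.0% of all. Matched from the dark peaks, 121 peaks of these genes had a median of 0.12 and 61.2% were higher in light, beside -0.0062 and 49.1%. With a reciprocal overlap of 50% required, the median was -0.046 for 42 regions near such genes, beside -0.055 over all regions kept. The interval covers only the spread among regions of 1 light and 1 dark library, and regions of a gene are not independent.

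The members of individual induced genes went both ways. Sik1 had most, 15 regions of which 6 were higher in light, then Gadd45g with 14 and 7, Inpp5f with 10 and 8, Irs2 with 9 and 6, and Ppp1r3c with 6 and 3. Errfi1, Pim3 and Lpar6 had 4 each, with 1, 3 and 3 higher in light. Among the strongest responders in RNA, Fos, Egr1, Fosl2 and Klf4 each had 1 region, Arc 2 and Btg2 3, so the number of regions did not follow the size of the response. The single regions of Fos, Egr1, Fosl2 and Klf4 lay 50398, 5454, 206919 and 581235 bp away, in that order.

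Sik1 encodes salt-inducible kinase 1, which limits the shift of the mouse clock by light. Its 15 regions lay within 77253 bp of the gene on either side. The strongest, chr17:31790933-31791527, had 8.72 in light against 7.99 in dark. The nearest, chr17:31863570-31864479, had 7.10 in light against 4.88 in dark, and the region beside it carries the Gm41565 start printed above. The region chr17:31877444-31877779 had 6.10 in light against 3.8 in dark, whereas chr17:31817550-31817804 had 3.02 in light against 7.07 in dark.

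Sik1 RNA stood at 146, 125 and 136 CPM in light littermates against 43.5, 55.2 and 45.4 CPM in dark ones. In the light-pulse experiment both 1 h libraries had 129 CPM, against 44.9, 36.4, 46.9 and 36.6 CPM in CT17 dark. Within each experiment no 1 h light library overlapped these dark ones. The log2 fold change was 1.5 ± 0.16 (SE, edgeR, adjusted p = 7.58e-05) in littermates and 1.5 ± 0.10 (adjusted p = 6.37e-08) in the light-pulse experiment. Over the light pulse the mean was 41.2 CPM in CT17 dark, 87.4 at 0.5 h, 129 at 1 h, 83.8 at 3 h and 73 at 6 h, beside 62.4 in CT23 dark.

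Gadd45g, a gene of the growth arrest and DNA damage family, had 1 region 7400 bp away and 13 between 167519 and 306922 bp downstream. The nearby one had 4.40 in light against 3.32 in dark. In the distal group, chr13:52046850-52048528 had 8.88 in light against 8.30 in dark, and the farthest pair, which shared a dark value, had 4.53 and 6.63 in light against 9.21 in dark. Its RNA stood at 84.6, 67.7 and 95.2 CPM in light littermates against 35.1, 34.5 and 41.5 CPM in dark ones (log2 fold change 1.16 ± 0.17 SE, adjusted p = 0.0015, edgeR). In the light-pulse experiment it stood at 33.8 and 34.5 CPM after 1 h against 16, 19.0, 15.2 and 17.5 CPM in CT17 dark (1.15 ± 0.12, adjusted p = 1.9e-05, edgeR). Within each experiment these light and dark libraries did not overlap, and the level was still 27.5 to 33.9 CPM at 6 h, beside 12.5 to 17.4 CPM in CT23 dark.

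Inpp5f, a phosphoinositide phosphatase gene, had the most even shift among the genes with many regions. Of its 10 regions, 8 lay 20432 to 38485 bp upstream, in the direction of Bag3, and 2 inside the gene. The 2 inside had 5.05 and 4.91 in light against 3.94 in dark for both, and chr7:128576272-128576549 had 6.63 in light against 4.32 in dark. The exceptions, 3.62 and 4.14 in light against 5.55 and 6.40 in dark, were both upstream. Inpp5f RNA stood at 324, 318 and 328 CPM in light littermates against 209, 206 and 208 CPM in dark ones (0.64 ± 0.07 SE on the log2 scale, adjusted p = 0.000102, edgeR). The 1 h libraries of the light-pulse experiment had 396 and 369 CPM, against 279, 239, 274 and 227 CPM in CT17 dark (0.48 ± 0.07, adjusted p = 0.000467, edgeR). The groups did not overlap in either experiment. By gene body, the strongest of the upstream regions is nearest to Bag3, so these regions could be counted to either gene.

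Irs2, an adaptor of the insulin receptor, had no region closer than 109837 bp. Its 9 regions lay in 5 places up to 285785 bp downstream, and the region carrying the Gm32540 start had 5.84 in light against 4.15 in dark. The farthest pair had 4.27 and 5.19 in light against 6.98 and 6.03 in dark. Irs2 RNA stood at 297, 284 and 283 CPM in light littermates against 101, 114 and 86.9 CPM in dark ones (1.52 ± 0.15 SE on the log2 scale, adjusted p = 3.99e-05, edgeR). After 1 h in the light-pulse experiment it stood at 217 and 207 CPM against 89.9, 81.3, 120.2 and 80.4 CPM in CT17 dark (1.02 ± 0.11, adjusted p = 4.94e-05, edgeR). The means at 0.5 h, 1 h, 3 h and 6 h were 117, 212, 137 and 112 CPM, so the 1 h libraries were the highest of the pulse.

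**Figure D4:**
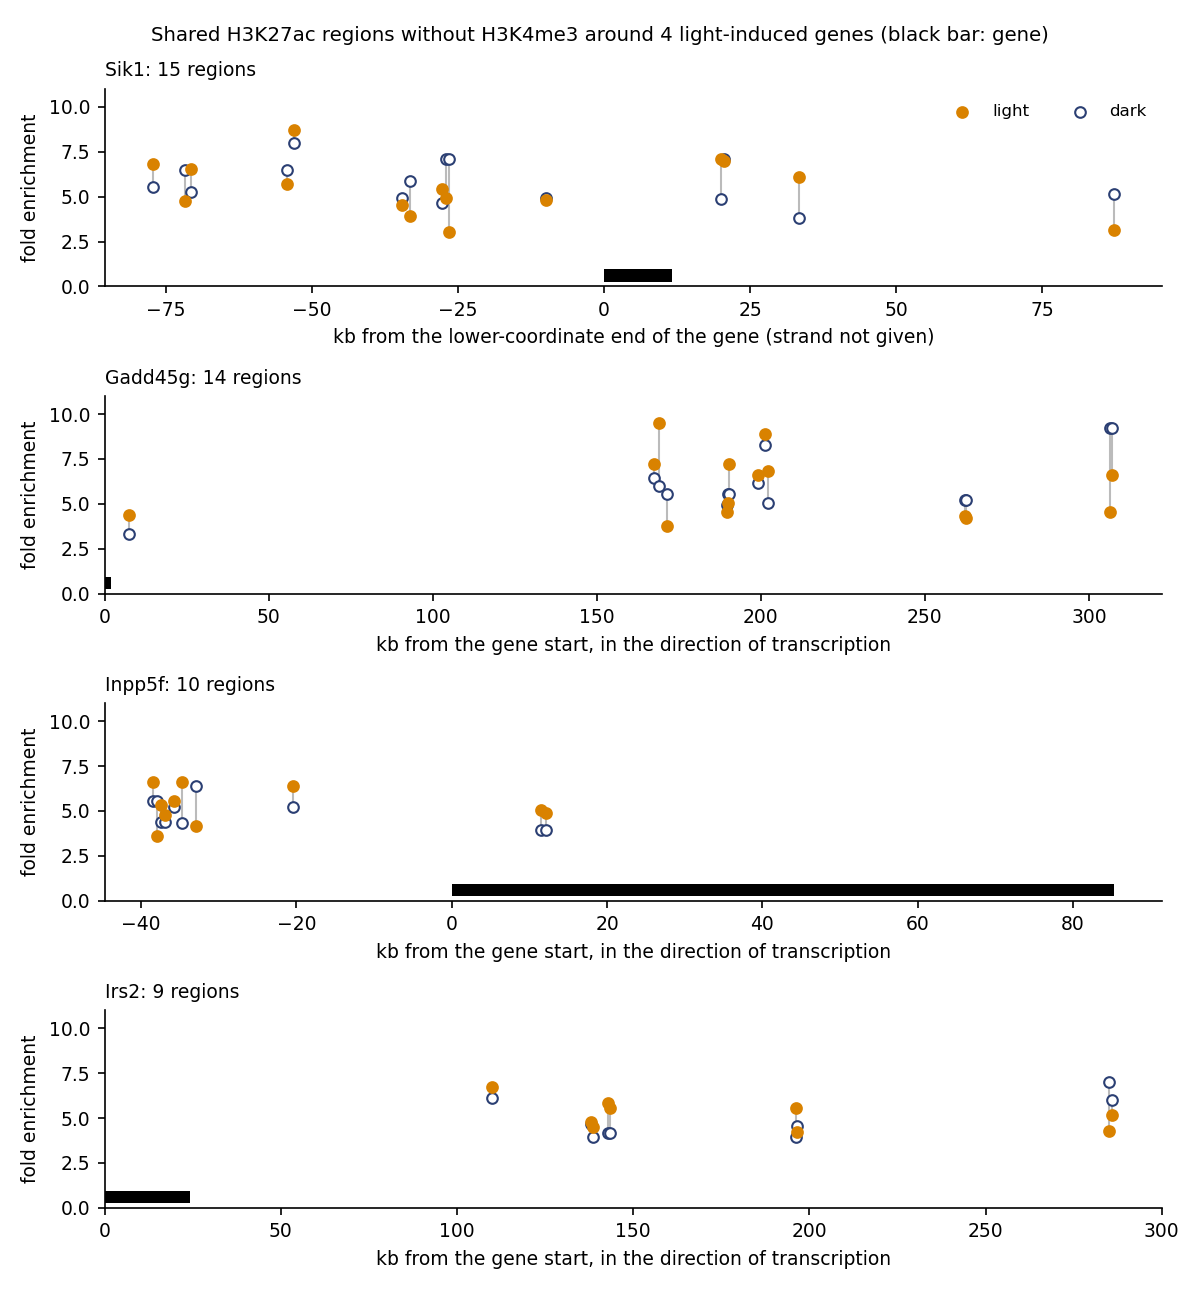
Fold enrichment (vertical axis) of each shared H3K27ac region without H3K4me3 around Sik1, Gadd45g, Inpp5f and Irs2, in the light list (orange, filled) and the dark list (blue, open), by distance from the gene (horizontal axis, kb; black bar, the gene). Grey lines join the 2 values of a region; 6 of 15, 7 of 14, 8 of 10 and 6 of 9 regions are higher in light.

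**Figure D5:**
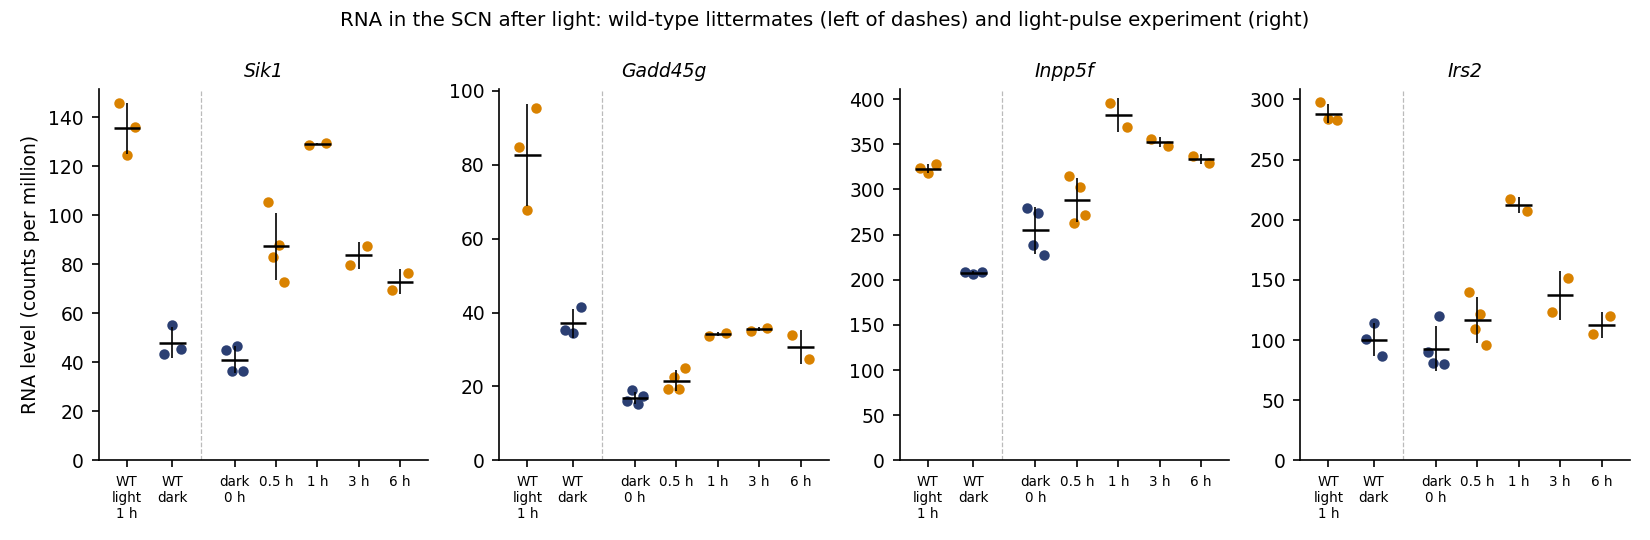
RNA level (vertical axis, CPM) of the same 4 genes in each library: littermates after 1 h of light and in the dark (left of the dashed line), and the light-pulse experiment by hours of light, starting with CT17 dark (right); orange, light; blue, dark. Bars give the mean and SD (n = 3, 3, 4, 4, 2, 2 and 2 libraries), and within each experiment no 1 h light library overlaps a CT17 or littermate dark one for any of the 4 genes.

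The other genes of this group had fewer regions. Ppp1r3c, which directs protein phosphatase 1 to glycogen, had 6 regions 34324 to 57180 bp downstream, with 3.93 to 6.89 in light and 4.67 to 6.27 in dark, and its RNA averaged 103 ± 5.0 CPM in light and 58.8 ± 4.2 CPM in dark littermates (SD, n = 3 each). Pim3, a kinase gene, had its strongest region 11268 bp upstream, at 7.94 in light against 5.74 in dark. Errfi1, a feedback inhibitor of the epidermal growth factor receptor, had 4.74 to 5.84 in light and 4.32 to 6.12 in dark, with 1 of 4 regions higher in light. The 3 regions of Tob1, an antiproliferative gene, were all lower in light, with 3.96 to 4.33 against 5.24 to 6.98 in dark, while its RNA was called higher in both experiments. By gene body, the strongest of these 3 is nearest to Spag9. Acetylation in these regions was thus not regularly higher in light near an induced gene. The rule left out light peaks without a dark peak and peaks with H3K4me3, so acetylation there is not covered.

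Immediate-early genes, induced by neuronal activity without new protein synthesis, had fewer such regions than shared regions with H3K4me3. The same was true over all genes, with 7334 against 18953 regions. Of the 23 listed genes, 8 were nearest to a region, with 20 regions in all and 8 of them higher in light (median log2 ratio -0.13). Among all 21308 counted genes with a position, 2315 were nearest to a region. A shared region with H3K4me3 was found for 18 of the 23, with 75 such regions, and for 9171 of the 21308. In RNA 21 of the 23 were called higher in littermates and 20 in the light-pulse experiment, with median log2 fold changes of 3.85 and 3.26, beside -0.01 over all tested genes in each. Among the 8 with a region, 7 were called higher in each experiment, against 2.23% of all tested genes in littermates and 1.11% in the light-pulse experiment.

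Arc, a synaptic immediate-early gene, had 2 regions beside it. The region 1101 bp from the nearer gene end had 8.46 in light against 7.56 in dark (chr15:74667846-74668145), and the one 1741 bp away had 7.59 in light against 7.56 in dark. Arc RNA stood at 104, 72.7 and 93.9 CPM in light littermates against 6.5, 5.9 and 6.33 CPM in dark ones (log2 fold change 3.85 ± 0.22 SE, adjusted p = 4.11e-07, edgeR). The 3 regions of Btg2, an antiproliferative gene, had 4.27 to 6.45 in light and 4.59 to 10.2 in dark, with RNA at 186 ± 20 CPM in light and 24.3 ± 0.9 CPM in dark littermates (SD, n = 3 each). Ier5 had 10 regions, the strongest at 6.89 in light against 4.02 in dark, but its RNA was not called in littermates, at 41.9 ± 3.8 CPM in light and 37.0 ± 2.4 CPM in dark littermates (adjusted p = 0.66, edgeR).

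Of 24 listed core clock genes, 8 were nearest to 21 regions, and 15 of these were higher in light, with a median log2 ratio of 0.14. Over all regions 39.0% were higher in light and the median was -0.11, and 49.1% were higher when matched from the dark peaks. The difference was not tested, and the 21 regions are of 1 light and 1 dark library. Cry1, a repressor of the clock, held a region with 8.46 in light against 5.46 in dark (chr10:85160922-85161766). Rora and Rorb, nuclear receptors that act on the clock gene Arntl, had regions at 7.99 in light against 4.63 in dark (chr9:68991936-68992724) and at 7.33 in light against 4.96 in dark (chr19:19718946-19719967). The first lies inside Rora, whereas the second lies 608496 bp upstream of Rorb, and the lncRNA Gm32469 is closer to it, at 101343 bp. The other Rora region had 6.36 in light against 4.89 in dark. The 2 regions inside Per2, a light-induced clock gene, had 4.27 and 5.0 in light against 3.50 and 5.25 in dark.

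In RNA, 4 of the 24 clock genes were called higher in each experiment and 0 lower by edgeR, with 1 lower in each by DESeq2 and 1 and 3 lower at an unadjusted p under 0.05. Over all tested genes 2.23% were called higher in littermates and 1.11% in the light-pulse experiment. Per2 stood at 114, 123 and 145 CPM in light littermates against 53.0, 52.0 and 51.5 CPM in dark ones (log2 fold change 1.29 ± 0.09 SE, adjusted p = 2.78e-06, edgeR). Rora stood at 295, 269 and 309 CPM in light littermates against 111, 170 and 129 CPM in dark ones (1.09 ± 0.19, adjusted p = 0.00533, edgeR). In the light-pulse experiment Rora had 201 and 166 CPM after 1 h against 108 to 115 CPM in CT17 dark (0.66 ± 0.11, adjusted p = 0.00372, edgeR), a call lost without replicate 1 of the 1 h group (adjusted p = 0.157). Cry1 and Rorb were not called, with log2 fold changes of -0.05 and 0.09 in littermates.

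The listed transcription factors of the SCN had more regions than the clock or immediate-early genes, but not at more genes. Of 20 listed genes, 8 were nearest to 52 regions, 27 of them higher in light, with a median log2 ratio of 0.02. Most of the 52 belonged to Sox2, Zfhx3 and Id4. These counts are not adjusted for the length of sequence to which a gene is nearest. Sox2, a factor of neural progenitors and glia, had 16 regions, the strongest at 8.10 in light against 8.30 in dark. Zfhx3 had 13 and Id4, an inhibitor of bHLH factors, had 12, the strongest Id4 region at 8.99 in light against 8.6 in dark. In RNA, Rora, which stands in this list too, was the single gene called in each experiment, and with the label batch as the term Id4 was also called higher in the light-pulse experiment (log2 fold change 0.35, adjusted p = 0.0137, edgeR).

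Peptide and receptor genes of the SCN had 17 regions at 5 of 22 listed genes, 8 of them higher in light (median log2 ratio -0.02). Vipr2, the receptor of the SCN peptide VIP, had a region 71304 bp downstream of its start with 6.89 in light against 8.14 in dark. Adcyap1r1, the receptor of the retinal peptide PACAP, had one upstream with 6.63 in light against 6.16 in dark. Rgs16, a regulator of G protein signalling, had one 3404 bp upstream with 6.55 in light against 4.39 in dark, beside the C230024C17Rik start printed above. Rgs16 RNA was called higher in the light-pulse experiment, at 94.3 ± 0.6 CPM after 1 h (SD, n = 2) and 64.2 ± 2.9 CPM in CT17 dark (SD, n = 4; log2 fold change 0.53, adjusted p = 0.0198, edgeR). That call was lost without replicate 1 or replicate 2 of either group, with adjusted p-values of 0.0809 to 0.183, and Rgs16 was not called in littermates (adjusted p = 0.471).

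Feedback and late-response genes of neuronal activity had 34 regions at 9 of 29 listed genes, 14 of them higher in light (median log2 ratio -0.05). In RNA 18 of the 29 were called higher in littermates and 17 in the light-pulse experiment, and among the 9 with a region 4 in each, against 2.23% and 1.11% of all tested genes. Apart from Sik1, the strongest regions belonged to Rasd1, a small G protein gene, at 7.41 in light against 5.24 in dark, and to Pde10a, a phosphodiesterase gene, at 6.71 in light against 4.67 in dark. The summit of the Rasd1 region lies inside another gene, Pemt. Neither Rasd1 nor Pde10a was called in RNA: Rasd1 averaged 145 ± 14 CPM in light and 224 ± 46 CPM in dark littermates (SD, n = 3 each; adjusted p = 0.369, edgeR).

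Glial genes also had regions. Of 10 astrocyte markers, 6 were nearest to 23 regions, 7 of them higher in light (median log2 ratio -0.13). The Sox9 region with the highest light value had 7.15 in light against 7.58 in dark, and that of Slc1a3, a glutamate transporter gene, 6.63 in light against 4.94 in dark. Of 10 oligodendrocyte markers, 4 were nearest to 7 regions, and 0 of the 7 were higher in light (median log2 ratio -0.23). The Cnp region had 6.36 in light against 8.14 in dark, and the Sox10 region 5.0 in light against 5.85 in dark. The summit of the Cnp region lies inside Dnajc7, and the Sox10 region lies 538 bp from Polr2f against 2601 bp from Sox10. By gene body, the Sox9 region, 259239 bp from Sox9, is nearest to Slc39a11. Of 10 microglial and endothelial markers, Pecam1 alone had a region, at 3.94 in light against 5.85 in dark, and 0 of 12 markers of the neighbouring hypothalamus had one.

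In RNA, 0 of the 6 astrocyte and 0 of the 4 oligodendrocyte genes with a region were called in either experiment by edgeR with the suffix term in the light-pulse model. Sox10, a factor of oligodendrocytes, was near the threshold there, with a log2 fold change of -0.56 in light (adjusted p = 0.0663). It was called lower by edgeR with the replicate block (adjusted p = 0.0391), without the filter on low counts (0.0441), without a batch term (0.0403), with the batch given in the labels as the term (0.00457) and without replicate 2 of the 1 h light group (0.0189). With the label batch, Cnp was called lower as well (log2 fold change -0.44, adjusted p = 0.0305) and the astrocyte gene Slc1a3 higher (0.42, adjusted p = 0.0185). At an unadjusted p under 0.05, 0 of these 6 and 4 genes with a region were different in littermates. In the light-pulse experiment 2 astrocyte and 3 oligodendrocyte genes with a region were lower in light, and DESeq2 called 1 of each lower. Of all 10 oligodendrocyte markers, 1 was called higher in littermates by edgeR and DESeq2. In the light-pulse experiment 8 of those 10 were lower at an unadjusted p under 0.05, and 3 of the 10 astrocyte markers were. DESeq2 called 3 and 2 of them lower there. Over the whole oligodendrocyte list the median log2 fold change was 0.08 in littermates and -0.52 in the light-pulse experiment. The summed marker levels given above moved with this, and their part in the counts of called genes in the light-pulse experiment was not tested.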

How the data were processed

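Peaks of H3K27ac and H3K4me3 in the SCN were taken from 4 lists, 1 per mark and condition, as the authors deposited them. Each peak of the deposited lists has a linear fold enrichment (a ratio to background) and a −log10 q-value of 2.04 or more in the light and 2.03 or more in the dark H3K27ac list. A further deposited value, the summit offset in bases, has no unit of its own and only places the summit. Per the submitters' processing notes, build mm10, MACS2 2.1.1, BWA 0.7.16a, bedtools 2.25.0, HOMER 4.9.1, SAMtools, featureCounts 1.6.2, STAR 2.5.2b, HTSeq 0.9.1 and STAR 2.7.1a were used in the series, and which tool made which file is not given in the sources used here. The deposited RNA tables hold whole read counts for 21999 genes. Their RPKM values, the 18 single-nucleus samples and the ChIP inputs were not used here.

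A light peak was set against the highest dark peak it overlapped, and that dark peak was not itself checked against H3K4me3. The nearest gene is the one with the nearest start among the 21308 counted genes that RefSeq (GRCm38.p6) places. For 4494 of these no strand was given and the nearer gene end was used. Peak values have no replicates and carry no test. Counts were tested with edgeR 4.0.16 (quasi-likelihood, TMM scaling, filterByExpr) in R 4.3.3, with Benjamini-Hochberg adjustment over all tested genes and a threshold of 0.05, after a check on simulated data. All 12 littermate-experiment libraries entered 1 model without a covariate. All 16 light-pulse libraries entered another with the title suffix s, carried by 4 libraries, as a term. In edgeR models the counting options and use of strand are unknown, so overlapping genes are uncertain. DESeq2 1.42.0 was an alternative. Whether replicate libraries were collected on different days is not given in the sources used here, and p-values reflect only their spread, which may be technical.

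Deviations from the group mean correlated between same-numbered light and dark littermate libraries (r = 0.20, 0.37 and 0.42), and between differently numbered ones r was -0.38 to -0.012. The numbers, which come from the titles, may thus pair these samples. The main littermate model leaves this pairing out, and the replicate block is the alternative that takes it in. The members and lists were chosen with earlier results of these data known. Genes named are the nearest genes of the 10 regions highest in light, of the 10 highest and 5 lowest in ratio among those at or above both medians, of the 3 strongest regions per gene list, and the 10 genes called higher in both experiments with most regions. Genes outside this rule (Per2, Fos, Egr1, Fosl2, Klf4, Klf13, Gast, Tspan14, Msi2, Ghrh, Src) and the highest dark peaks were picked after their values were seen. A few results are not reported here.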

Additional observations from a re-analysis of the deposited data

Results flagged for a closer look

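In 5 of 102 gene and group pairs examined, each a named gene in a group of 4 light-pulse libraries, 1 library lay far from the other 3, and chance flags about 1 in 20 groups. Rora had 125.8 CPM in 1 library after 0.5 h of light, against 94.0 to 98.7 CPM in the other 3. At the same time Gtf2ird1 had a low library at 46.18 CPM, against 52.6 to 53.4 CPM, and Zmynd8 a low library at 167.2 CPM, against 179.7 to 181.4 CPM. In CT17 dark, Prex1 had a high library at 164.6 CPM, against 142.8 to 145.8 CPM, and Tob1 a low library at 89.55 CPM, against 98.6 to 99.8 CPM.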

How the results depend on the processing

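Requiring reciprocal overlap of 50% left 3130 regions with a median log2 ratio of -0.055. There the 42 regions near genes induced in both experiments had -0.046, close to that median. A -log10 q of 5 or more left 3235 regions with -0.031, where the 46 regions near such genes had 0.11. The dark peak with the nearest summit gave a median of -0.086, and matching from the dark peaks, an alternative added after seeing the data, -0.0062. The cause of these moves was not tested. Staying 1 kb from H3K4me3 (6058 regions) or merging touching peaks changed none of these values beyond its interval. Called genes in littermates were 386, and 755 with the replicate block (all 386 among them), with 119 nearest genes higher in place of 75. Leaving out 1 library gave 262 to 359 genes in littermates and 107 to 166 in the light-pulse experiment, where 184 were called, with 54 to 76 and 29 to 43 nearest genes higher and a median ratio near induced genes of 0.02 to 0.03. The label batch term called 1218 genes there, 638 higher and 580 lower, with 125 nearest genes higher, against 161 and 23 with the suffix term. There a replicate block called 219 genes, and with only 2 pairs the numbers are not shown to pair the samples. Of the fold changes of named genes under alternatives, 1010 kept their side of the threshold, 13 gained and 6 lost a call and 0 reversed. Motifs in all regions were not run, since no genome was given. The step of the enrichment values and 1 ChIP library per list limit what a ratio of 1 region shows.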

Other observations

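The regions were spread over all chromosomes except Y, from 663 on chromosome 11 and 659 on chromosome 2 to 18 on chromosome X. Of 1792 genes nearest both to a region without H3K4me3 and to one with it, 66 of 1724 tested (3.83%) were called higher in light in littermates and 39 of 1708 (2.28%) in the light-pulse experiment, by edgeR at an adjusted p of 0.05, against 2.23% and 1.11% of all tested genes. Dnajb5, a heat shock protein gene with 1 region 2228 bp from its start, had the highest ratio at an induced gene, 6.81 in light, a log2 ratio of 1.11 over dark, and its RNA averaged 186 ± 22 CPM in light and 69.4 ± 1.4 CPM in dark littermates (SD, n = 3 each). It was picked after its value was seen.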
